A study of Homo sapiens with 4 samples.

Results

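The transcripts described here are those of 45 genes of the cell division cycle, 12 that act in S phase (MCM2, MCM3, MCM4, MCM5, MCM6, MCM7, PCNA, RRM2, TYMS, CDC6, CDT1 and E2F1) and 33 that act in mitosis. They were taken from a list of symbols, and every probe annotated to a listed symbol was used, which gave 66 of 47321 probes and 45 of 20046 genes. The cells were HuES6, an established human embryonic stem cell (hESC) line, grown without feeder cells on Matrigel. Expression was read on Illumina HumanHT-12 V4 bead arrays, whose probes are short oligonucleotides that capture labelled RNA. There were 4 groups with 1 array each: cells given 20 ng/ml BMP4 together with 5 µM CHIR99021, cells given CHIR99021 alone, cells given BMP4 alone, and untreated cells. Treatment lasted 4 h, and the medium of every group held Activin A (5 ng/ml) and FGF2 (20 ng/ml). BMP4 is a ligand of BMP receptors, and CHIR99021 is an inhibitor of the kinase GSK3 that turns on canonical WNT signaling. With 1 array per group no difference has a replicate check, and no p-value is given.

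In a dividing cell, origins of replication are licensed in G1, when CDC6 and CDT1 load the ring-shaped MCM2-7 helicase onto DNA. The helicase is fired in S phase, with the sliding clamp PCNA holding the polymerases on the template and with RRM2 and TYMS supplying deoxynucleotides. Many of these genes are transcribed at the G1/S boundary by the E2F family. Mitotic genes follow later, in G2 and M, and many of them are regulated by the DREAM and MuvB complexes through a promoter element called CHR, often with CCAAT boxes nearby. Human pluripotent stem cells are known for rapid division and a short G1 phase. A bulk RNA level of a cell cycle gene can differ because more or fewer cells are in that phase or because each cell holds more or less of the RNA, and the arrays cannot tell these apart.

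The promoters of the S phase and mitotic members differed in the elements they hold. Windows from 250 bases before to 50 bases after the gene start were taken from RefSeq (GRCh38.p14) for 38 of the 45 members, 10 S phase and 28 mitotic. UBE2C, TPX2, MCM5, TTK, MCM4, BIRC5 and AURKA were not matched. An E2F site, searched on both strands as TTTCCCGC, TTTCGCGC, TTTGCCGC or TTTGGCGC, stood in 9 of the 10 S phase windows and in 3 of the 28 mitotic ones, against 3.31% of 35116 windows of the same length and 5.41% of those of genes detected on the arrays. The CHR, searched on both strands as TTTGAA, stood in 0 of the 10 S phase windows and in 17 of the 28 mitotic windows, against 15.2% of all windows and 9.87% of those of detected genes. CCAAT, on both strands, was found in 7 of 10 S phase windows and 23 of 28 mitotic windows, against 34.6% of all. An E2F match on the plus strand can overlap one on the minus strand, as in MCM6, and so can CCAAT, as in HMMR, whereas E2F and CHR letters do not overlap each other. A match is only a run of letters and not a shown binding site, and these members were listed for functions that go with such elements.

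Stretches of 4 S phase promoters carry the contrast, each the 160 bases that end at the base before the gene start, 5′ to 3′, with E2F letters in capitals. They belong to the S phase members with the highest mean CHIR99021 differences, defined below (CDT1 and PCNA), and to members that were lower under CHIR99021 (TYMS and MCM6). The CDT1 stretch lies at chr16:88803629-88803788 on the plus strand. The PCNA stretch lies at chr20:5126623-5126782 on the minus strand. The TYMS stretch lies at chr18:657493-657652 on the plus strand. The MCM6 stretch lies at chr2:135876444-135876603 on the minus strand.
CDT1: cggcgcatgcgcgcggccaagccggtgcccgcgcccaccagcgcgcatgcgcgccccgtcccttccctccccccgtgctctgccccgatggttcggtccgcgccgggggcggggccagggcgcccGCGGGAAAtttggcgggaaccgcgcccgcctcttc
PCNA: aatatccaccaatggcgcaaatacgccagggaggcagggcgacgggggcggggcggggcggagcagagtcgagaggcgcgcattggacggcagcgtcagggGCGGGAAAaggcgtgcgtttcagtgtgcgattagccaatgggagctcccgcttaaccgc
TYMS: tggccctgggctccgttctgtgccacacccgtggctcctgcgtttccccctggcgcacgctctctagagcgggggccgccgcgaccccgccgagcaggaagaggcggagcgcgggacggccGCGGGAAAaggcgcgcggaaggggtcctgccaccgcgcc
MCM6: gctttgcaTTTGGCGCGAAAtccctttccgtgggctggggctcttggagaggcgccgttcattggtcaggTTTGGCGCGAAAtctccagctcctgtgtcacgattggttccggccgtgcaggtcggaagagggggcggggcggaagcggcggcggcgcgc
CDT1, PCNA and TYMS each had 1 E2F match, on the minus strand, 35, 59 and 39 bases before the start. MCM6 had 4, in 2 places where the plus and the minus strand both match.

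Stretches of 6 mitotic promoters are shown in the same way with the CHR letters in capitals. Of these, 4 belong to members with lower levels under CHIR99021 (PRC1, CENPA, DLGAP5 and HMMR). The others belong to the mitotic members with the highest mean BMP4 differences over both backgrounds (CDC20 and PLK1). These groups overlap, since CDC20 was also lower under CHIR99021 (mean -0.23) and CENPA also higher under BMP4 (mean 0.31). The PRC1 stretch lies at chr15:90994536-90994695 on the minus strand. The CENPA stretch lies at chr2:26785896-26786055 on the plus strand. The DLGAP5 stretch lies at chr14:55191586-55191745 on the minus strand. The HMMR stretch lies at chr5:163460472-163460631 on the plus strand. The CDC20 stretch lies at chr1:43358821-43358980 on the plus strand. The PLK1 stretch lies at chr16:23678729-23678888 on the plus strand.
PRC1: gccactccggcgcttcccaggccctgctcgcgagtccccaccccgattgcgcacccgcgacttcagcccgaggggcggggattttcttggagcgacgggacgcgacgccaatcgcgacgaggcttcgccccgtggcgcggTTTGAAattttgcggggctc
CENPA: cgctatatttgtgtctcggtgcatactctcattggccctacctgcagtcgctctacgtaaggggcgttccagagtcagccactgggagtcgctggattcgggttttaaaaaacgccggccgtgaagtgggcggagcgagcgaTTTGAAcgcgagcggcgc
DLGAP5: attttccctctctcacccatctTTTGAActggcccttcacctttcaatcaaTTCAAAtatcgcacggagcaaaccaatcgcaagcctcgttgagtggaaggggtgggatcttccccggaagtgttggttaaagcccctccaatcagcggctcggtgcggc
HMMR: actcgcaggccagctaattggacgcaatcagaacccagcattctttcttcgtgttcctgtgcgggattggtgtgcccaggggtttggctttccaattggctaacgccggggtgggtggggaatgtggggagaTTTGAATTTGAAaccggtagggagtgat
CDC20: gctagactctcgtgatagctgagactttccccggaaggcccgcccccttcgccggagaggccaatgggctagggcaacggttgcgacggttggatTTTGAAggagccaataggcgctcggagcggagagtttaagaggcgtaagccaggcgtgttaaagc
PLK1: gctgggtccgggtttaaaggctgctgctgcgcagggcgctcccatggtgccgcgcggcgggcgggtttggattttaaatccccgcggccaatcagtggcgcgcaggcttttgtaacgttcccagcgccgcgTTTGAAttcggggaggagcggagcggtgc
The CHR of PRC1 began 20 bases before the gene start, that of CENPA 18 bases and that of PLK1 29 bases before it. HMMR had 2 in a row at 28 and 22 bases. DLGAP5 had 2 within the stretch, at 138 and 109 bases before the start, and a further match 3 bases after it. CDC20 had 1 in the stretch, at 65 bases, and 1 at 178 bases. CENPF, the lowest member under CHIR99021, had its CHR 40 bases after the start, outside such a stretch. Of the 17 mitotic members with the CHR, 14 had a mean CHIR99021 difference below 0, as had 9 of the 11 without it. Among all detected genes 50.4% were below 0. PLK1 was among the members with the CHR that were not below 0. The map of motif positions lists the genes in order of this difference.

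**Figure D1:**
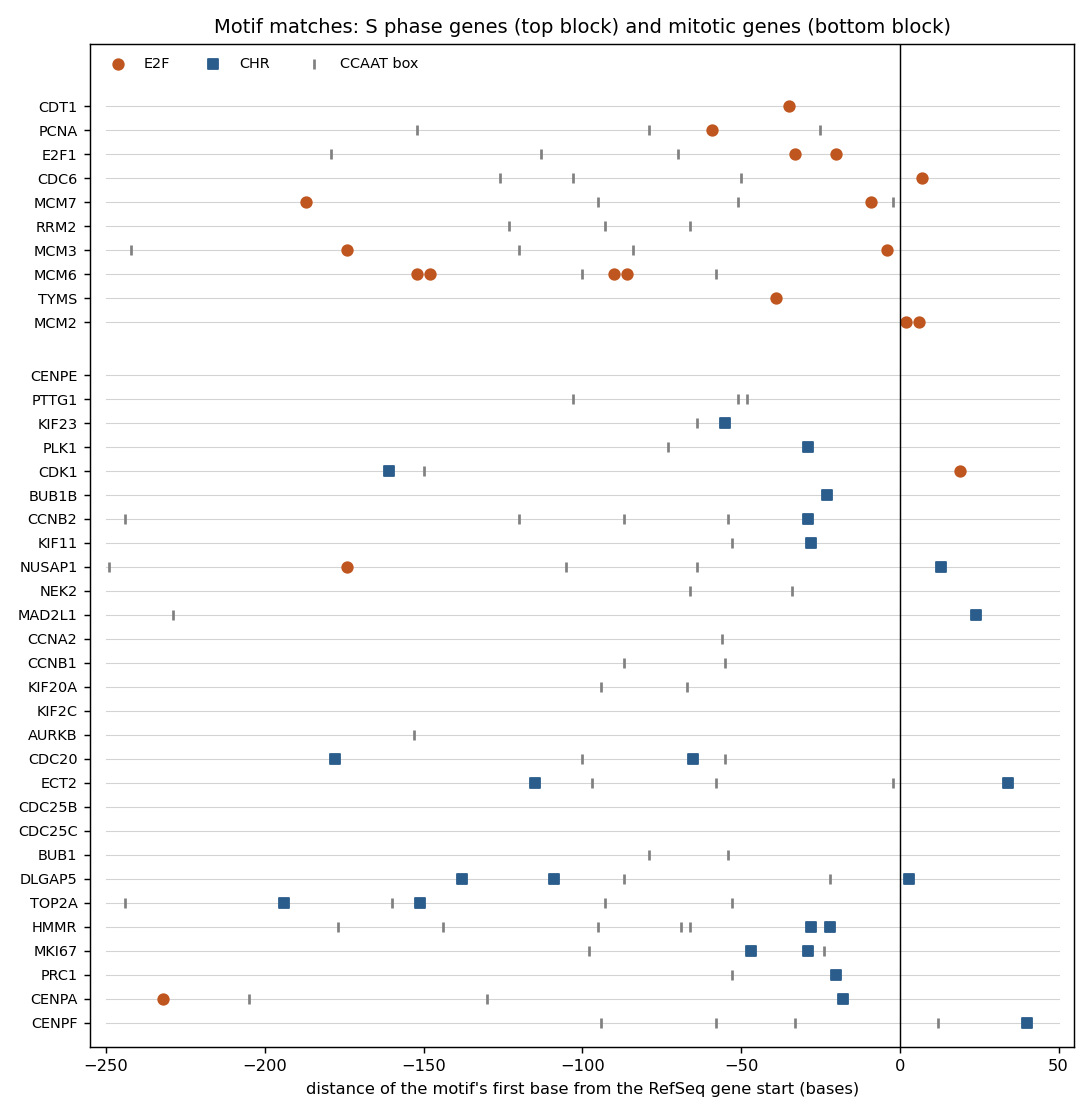
Positions of E2F (circles), CHR (squares) and CCAAT (ticks) matches in the 300-base promoter windows of 10 S phase genes (upper block) and 28 mitotic genes (lower block), as the distance in bases of the first base of the match from the gene start. Genes run down each block in order of the mean CHIR99021 difference, highest first. E2F matches fill 9 of 10 S phase windows and CHR matches 17 of 28 mitotic ones.

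The 4 arrays were alike in overall brightness, with raw medians of 88.7 to 93.6 and with 33.8% to 35.4% of probes detected (detection p below 0.01). The 7 markers of undifferentiated pluripotent cells with a probe were detected on all 4 arrays. Of other cell types, 0 of 3 cardiac markers were detected on any array, DCN and LUM of 5 fibroblast markers were not detected on any, and neither were PAX6 and SOX1 of 3 neural markers or APOA1 and TTR of 4 hepatic markers. On all 4 arrays 2 fibroblast markers, 1 hepatic marker and 1 neural marker, TUBB3 (normalized log2 intensity 11.70 to 12.22), were detected. The summed linear level of the fibroblast markers was 663 with both treatments, 613 with CHIR99021, 679 with BMP4 and 777 in untreated cells. Like many mitotic members it was highest on the untreated array. The summed linear level of the neural markers rests almost wholly on TUBB3, the only neural marker detected. It was 4166 with both treatments, 3367 with CHIR99021, 4805 with BMP4 and 3984 in untreated cells. This is the same order of arrays as for CDC20 and RRM2 below. The part of either sum in the results was not tested.

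All 45 members were detected on at least 1 array and 43 on all 4, so no member was lost to the filter on dim probes. The exceptions were CDC6, not detected on the CHIR99021 array, and MKI67, not detected on the array with both treatments. Of the 66 probes, 2 were not detected anywhere, the third probes of MCM7 and PCNA. For each gene the probe with the highest mean was used. The mean normalized log2 intensity of the members ran from 5.14 to 11.85 with a median of 9.08, against a median of 7.0 over all 11282 detected genes, and 33 of the 45 stood at 8 or more, against 33.4% of all detected genes. The members' median range over the 4 arrays was 0.44 on the log2 scale, against 0.43 for all detected genes. Because the members are brighter, and genes of like brightness were not compared, these values do not show whether they were more variable than the rest.

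The first comparison asked whether S phase and mitotic genes had moved differently when WNT signaling was switched on with CHIR99021. No such split was seen, and both classes stood slightly lower by about the same amount. Against untreated cells the median log2 difference was -0.15 over the 12 S phase genes and -0.21 over the 33 mitotic genes, against -0.01 over 10747 measured genes. Where BMP4 was present on both sides (both treatments against BMP4 alone), a comparison that uses neither the CHIR99021 array nor the untreated array, the medians were -0.11 and -0.14, against 0.00 over 10732 genes. With arrays scaled by their median the values against untreated cells were nearer to 0, at -0.09 in S phase and -0.11 in mitotic genes. The median over all measured genes was then 0.03. The mean of the 2 differences, called the mean CHIR99021 difference below, had a median of -0.13 in S phase genes and of -0.13 in mitotic genes. It was below 0 in 8 of 12 S phase genes (66.7%) and in 26 of 33 mitotic genes (78.8%), against 50.4% of all detected genes.

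Few members passed a size rule of 0.5 on the log2 scale. In CHIR99021-treated against untreated cells 3 members fell (CENPA, ECT2 and TOP2A) and 0 rose, where 8.11% of all measured genes were lower and 6.03% higher by that rule, a share of members close to that of all genes. In cells with both treatments against BMP4 alone, 1 member fell (CENPF) and 1 rose (CDT1), where 5.98% and 5.2% of all genes did. No member differed by 1 or more in either comparison, where 0.921% and 0.811% of all genes did. The lower levels of the mitotic genes under CHIR99021 were therefore small shifts in many members and not large changes in a few.

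**Figure D2:**
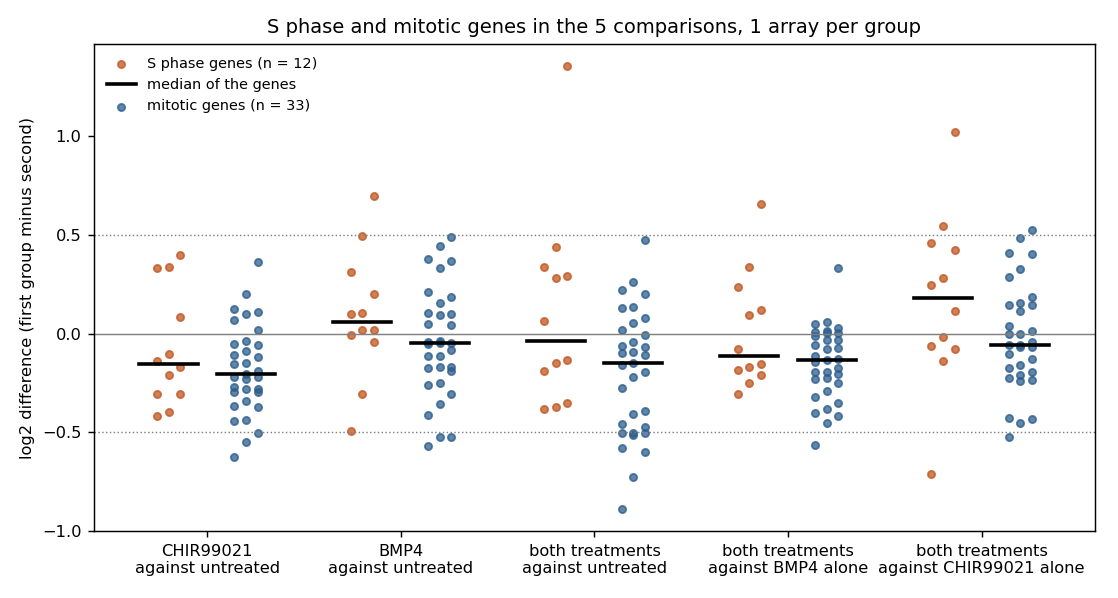
Log2 difference (first group minus second, normalized intensities) of each of the 12 S phase genes (orange, left) and 33 mitotic genes (blue, right) in the 5 comparisons, with the median as a black bar and dotted lines at a size of 0.5. The mitotic median lies below 0 in all 5, at -0.21 for CHIR99021 against untreated, and the highest point in 4 of the 5 comparisons is CDT1.

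The signs of the differences were set side by side in the CHIR99021 comparisons, which share no array. In 26 of 45 members (57.8%) the difference was below 0 in both, 6 of them S phase and 20 mitotic genes, in 5 it was above 0 in both and in 14 the signs were opposite. Among all detected genes 29.8% were below 0 in both and 28.9% above 0 in both. Across the 45 genes the pair of differences correlated with Pearson's r of 0.43 and Spearman's rho of 0.40, against 0.37 and 0.28 across all detected genes, as a description, since genes on the same arrays are not independent. Within S phase genes r was 0.64 over 12 genes and within mitotic genes 0.23 over 33. The difference with BMP4 minus that without BMP4, the departure from additivity, had a median size of 0.20 in the members, larger than the median shift itself. Over all detected genes this size was 0.24.

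**Figure D3:**
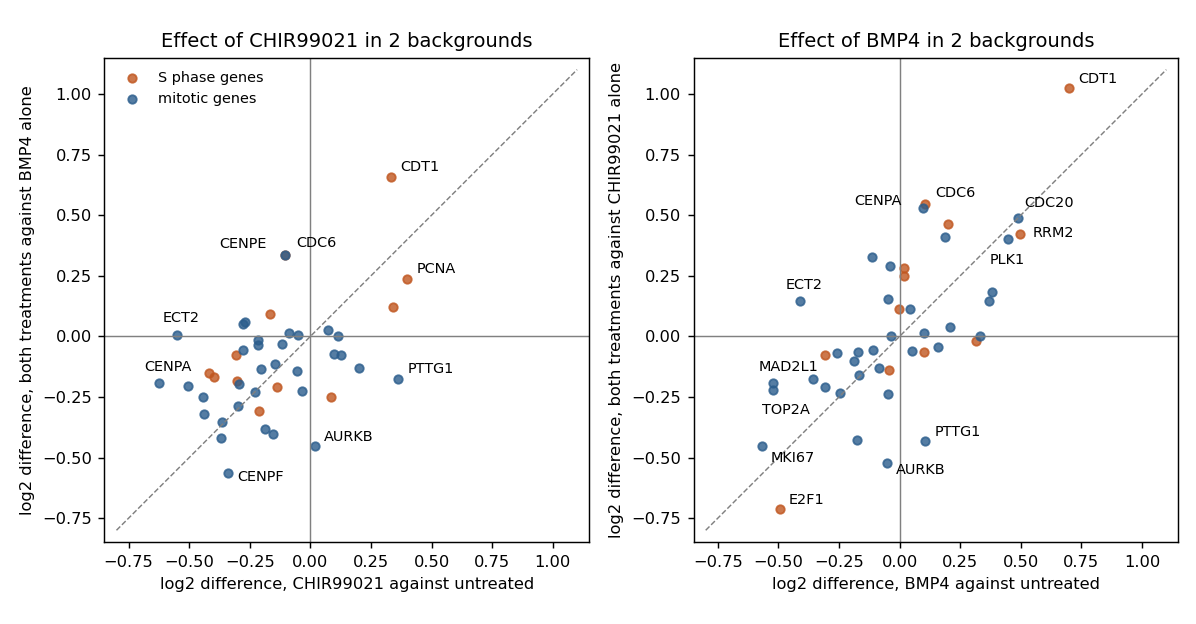
Log2 difference made by CHIR99021 (left panel) and by BMP4 (right panel) for each member, without the other treatment on the x axis and with it on the y axis. The 2 axes of a panel share no array, the dashed line marks equal values, orange points are S phase genes and blue points mitotic genes. In the left panel 26 of 45 points lie below 0 on both axes, and in the right panel CDT1 lies far from the others at 0.70 and 1.02.

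Within S phase, all 6 genes of the MCM helicase had a mean CHIR99021 difference below 0, from -0.29 (MCM2) and -0.28 (MCM5) over -0.24 (MCM6) and -0.19 (MCM3) to -0.08 (MCM4) and -0.04 (MCM7). MCM4 was however at 0.08 against untreated cells and MCM7 at 0.09 against BMP4 alone, and none of the MCM genes passed 0.5. Of the loading factors, CDT1 was above 0 in both comparisons, with a mean of 0.50. CDC6 had opposite signs and was not detected on the CHIR99021 array, so that no side is given for it. MCM2 stood at 8.39 with both treatments, 8.10 with CHIR99021, 8.54 with BMP4 and 8.52 in untreated cells (normalized log2 intensity). MCM5 was 9.75 with both, 9.50 with CHIR99021, 9.92 with BMP4 and 9.90 in untreated cells. In both genes the CHIR99021 array was the lowest of the 4, as it was for 6 of the 12 S phase members, against 27.3% of all detected genes.

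For 3 of the MCM genes other probes gave a second reading of the mean CHIR99021 difference. It was -0.16 at the other MCM3 probe, -0.31 at the other MCM4 probe and -0.70 at the other MCM7 probe, all below 0 like the probes used, though for MCM7 far from the -0.04 of the brighter probe. When arrays were scaled by their median instead of by quantiles, MCM4 (0.00) and MCM7 (0.07) were no longer below 0.

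CDT1, whose product brings the helicase to origins and is destroyed once S phase begins, had the highest mean CHIR99021 difference and the highest mean BMP4 difference of all members. Its level was 9.75 with both treatments, 8.72 with CHIR99021, 9.09 with BMP4 and 8.39 in untreated cells, with raw intensities of 889, 517, 580 and 423 in the same order. The array with both treatments stood above each single treatment and untreated cells stood below all treated ones. It was 0.33 higher with CHIR99021 than in untreated cells and 0.66 higher with both treatments than with BMP4 alone (1.58-fold). Against untreated cells alone, CHIR99021 gave higher differences in PCNA (0.40), PTTG1 (0.36) and E2F1 (0.34). With BMP4 the difference from untreated cells was 0.70 (1.62-fold), and with both treatments against CHIR99021 alone it was 1.02 (2.03-fold). Cells with both treatments exceeded untreated cells by 1.36, or 2.56-fold. CDT1 has 1 probe on the array, so no second reading exists, and it lies on chromosome 16 at 88803789 to 88809258.

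PCNA was the other S phase gene of high intensity that stood higher under CHIR99021, below the size rule. It measured 10.34 with both treatments, 10.41 with CHIR99021, 10.11 with BMP4 and 10.01 in untreated cells. The arrays with CHIR99021 were thus both above those without it, by 0.40 against untreated cells and by 0.24 against BMP4 alone. A second detected probe for PCNA gave a mean CHIR99021 difference of 0.26, beside 0.32 for the probe used. In that second probe, however, the difference was 0.52 against untreated cells and 0.00 against BMP4 alone.

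Of the genes that make deoxynucleotides, TYMS, the thymidylate synthase, had 10.66 with both treatments, 10.80 with CHIR99021, 10.96 with BMP4 and 11.01 in untreated cells. Both CHIR99021 differences were below 0, at -0.21 and -0.31 with BMP4. RRM2, the small subunit of ribonucleotide reductase, had a mean CHIR99021 difference of -0.17. E2F1, the activator E2F, was dim, with raw intensities of 108 with both treatments, 142 with CHIR99021, 108 with BMP4 and 131 in untreated cells, and its mean CHIR99021 difference was 0.23. CDC6 was at the edge of detection, with raw intensities of 110, 100, 104 and 106 in that order. Its probe was not detected with CHIR99021, so that level is a bound, at least 1.01-fold lower than in untreated cells and, read the other way, at least 1.36-fold higher with both treatments than with CHIR99021 alone.

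Among mitotic genes the lowest mean CHIR99021 differences lay in the centromere, in spindle assembly and cytokinesis, and on the mitotic chromosome. CENPF, a large kinetochore protein, had 7.65 with both treatments, 7.51 with CHIR99021, 8.22 with BMP4 and 7.85 in untreated cells. The arrays with CHIR99021 were both lower than those without it, by 0.34 without BMP4 and by 0.57 with it, which is 1.48-fold. CENPA, the histone H3 variant that marks centromeres, had 7.93, 7.41, 8.13 and 8.03 in the same order. Its difference was -0.63 against untreated cells (1.54-fold lower) and -0.19 against BMP4 alone, and a second probe read -0.34 and -0.16. CENPE, a kinetochore motor, did not follow, with -0.11 and 0.33.

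Of the 6 genes of spindle assembly and cytokinesis, 5 had a mean CHIR99021 difference below 0, against 50.4% of all detected genes. Their median was -0.31 over all 6. PRC1, which bundles the microtubules of the central spindle, had raw intensities of 758 with both treatments, 923 with CHIR99021, 978 with BMP4 and 1141 in untreated cells, and its normalized log2 CHIR99021 differences were -0.37 and -0.42. HMMR, a spindle-associated hyaluronan receptor, had normalized log2 levels of 8.07, 8.31, 8.42 and 8.67 in that order, with -0.36 and -0.35. At the probes used for PRC1 and HMMR the arrays with CHIR99021 both lay below the arrays without it, but a second HMMR probe read -0.33 and -0.06. DLGAP5, a microtubule-stabilizing protein also known as HURP, read -0.44 and -0.25, and its second probe -0.50 and -0.48. ECT2, the exchange factor that activates RhoA for the cleavage furrow, differed between backgrounds, at -0.55 against untreated cells and 0.01 against BMP4 alone. TPX2, an activator of Aurora A on the spindle, was at 0.02 in the mean.

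TOP2A, the topoisomerase that untangles mitotic chromosomes, was lower under each treatment. It had 9.40 with both treatments, 9.62 with CHIR99021, 9.60 with BMP4 and 10.12 in untreated cells, so that the untreated array stood well above the other three. The difference from untreated cells was -0.73 with both, -0.50 with CHIR99021 and -0.52 with BMP4. These values share the untreated array. In comparisons without it TOP2A differed less, by -0.20 (both treatments against BMP4 alone) and -0.22 (both treatments against CHIR99021 alone). MKI67, the proliferation antigen Ki-67 that coats mitotic chromosomes, was dim, with raw intensities of 93.2 with both treatments, 107 with CHIR99021, 102 with BMP4 and 124 in untreated cells. Since it was not detected with both treatments, it was at least 1.58-fold lower there than in untreated cells.

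The mitotic kinases, the motors and the cyclin-CDK1 group showed less. CDK1, the kinase that drives entry into mitosis, was nearly level, at 10.08 with both treatments, 10.04 with CHIR99021, 10.15 with BMP4 and 9.94 in untreated cells. Its mitotic cyclin partners CCNB1 and CCNB2 had mean CHIR99021 differences of -0.13 and -0.04, and cyclin A2 (CCNA2) had -0.12. The CDK1-activating phosphatases CDC25B and CDC25C stood at -0.28 and -0.29. Of the kinase group, AURKB was at -0.22, its partner survivin (BIRC5) at -0.17 and NEK2, a centrosome kinase, at -0.10, while PLK1 and AURKA were at 0.05 and 0.04. The 4 kinesins ran from -0.17 (KIF2C) and -0.13 (KIF20A) over -0.07 (KIF11) to 0.06 (KIF23).

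Single probes did not always speak for their gene. For KIF11, the motor that separates spindle poles, the second probe had a mean CHIR99021 difference of -0.54, against -0.07 at the brighter probe. For KIF23, a motor of the central spindle, these values were -0.59 and 0.06. The second KIF23 probe was dim and was not detected on either array with CHIR99021, so its -0.59 is not a measured size. In MAD2L1, BIRC5 and NEK2 the second probe was above 0 (0.20, 0.05 and 0.05) and the brighter probe below 0. In AURKA and PTTG1 it was the reverse, with second probes at -0.20 and -0.01. A second probe was detected on at least 1 array in 19 members, KIF23 included. Of these, 13 had the same sign of the mean CHIR99021 difference at both probes, and the median gap between probes was 0.16. For the mean BMP4 difference 12 of 19 had the same sign, with a median gap of 0.16. Which probe reads the gene better was not tested.

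The spindle checkpoint and the anaphase-promoting complex (APC/C) had mean CHIR99021 differences below 0 in 6 of 7 members, against 50.4% of all detected genes. BUB1, a checkpoint kinase, was the lowest at -0.29, with 8.42 with both treatments, 8.58 with CHIR99021, 8.71 with BMP4 and 8.88 in untreated cells, so that the CHIR99021 arrays were both below the others. The checkpoint kinase TTK was at -0.25 and CDC20, the activator of the APC/C, at -0.23. The ubiquitin-conjugating enzyme UBE2C was at -0.13, the checkpoint protein MAD2L1 at -0.12 and BUB1B at -0.02. However, the second MAD2L1 probe had a mean of 0.20, and BUB1B was at 0.01 with median scaling. PTTG1 (securin), which holds separase in check until anaphase, was at 0.09, but with differences of 0.36 against untreated cells and -0.17 against BMP4 alone. PTTG1 has near-identical copies in the genome, and whether its probes also capture their RNA was not tested.

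**Figure D4:**
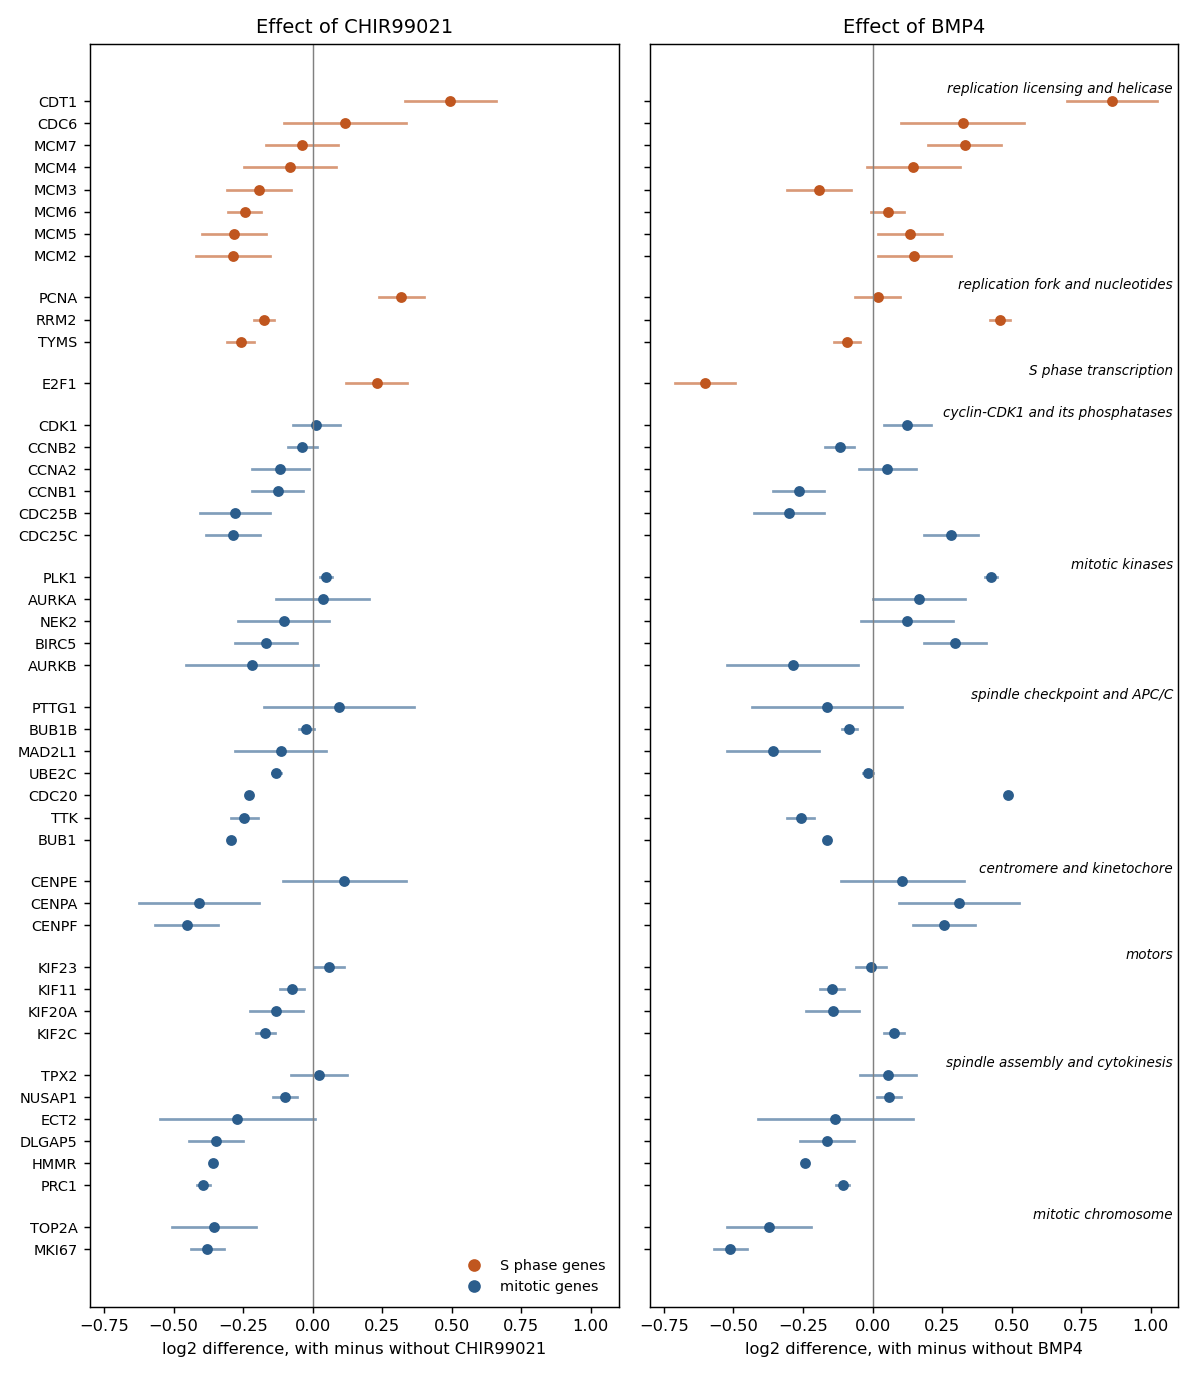
Mean log2 difference (dots) made by CHIR99021 (left) and BMP4 (right) for all 45 members, grouped by role, with a line joining the values without and with the other treatment. Lines are not error bars, since each value is from 1 pair of arrays. The MCM genes, PRC1, HMMR and CENPF lie left of 0 for CHIR99021, and CDT1, CDC20, RRM2 and PLK1 lie right of 0 for BMP4.

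The second comparison asked what BMP4 did to the same genes, and here the class medians lay on opposite sides of 0. The mean BMP4 difference had a median of 0.14 in S phase genes and of -0.08 in mitotic genes, a gap of 0.22, against -0.01 over all detected genes. It was below 0 in 3 of 12 S phase genes and in 19 of 33 mitotic genes, against 51.5% of all detected genes. The values of the classes overlapped, and the gap was not tested. The gap was smaller for BMP4 against untreated cells (0.06 and -0.05) than for both treatments against CHIR99021 alone (0.18 and -0.06). By the size rule CDT1 rose and MAD2L1, MKI67 and TOP2A fell in BMP4-treated against untreated cells, where 4.02% of all genes were higher and 4.14% lower. In both treatments against CHIR99021 alone CDT1 and CENPA rose and AURKB and E2F1 fell, where 7.24% of all genes were higher and 5.32% lower. CDC6 also had a value above the rule (0.54), but it is set against an array that did not detect it. Its bound, at least 1.36-fold, lies under the rule, and so does the second CENPA probe (0.21). At a size of 1 or more there were 0 members in the first of these comparisons, where 0.295% of all genes passed, and 1, CDT1, in the second, where 0.416% did.

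The 2 BMP4 comparisons share no array either, and their differences followed each other across the members. Across the 45 members Pearson's r was 0.67 and Spearman's rho 0.68, against 0.24 and 0.20 across all detected genes. In 18 members (40.0%) the difference was below 0 in both, among them 15 mitotic genes, and in 16 (35.6%) it was above 0 in both, 6 of them S phase genes, against 29.0% and 28.2% of all detected genes. In 10 the signs were opposite, and for UBE2C one difference was 0. Within S phase genes r was 0.82 over 12 genes and within mitotic genes 0.56 over 33. The members are brighter than most genes, and the part of brightness in this was not tested.

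After CDT1, the highest mean BMP4 differences were those of CDC20, RRM2 and PLK1, each just under the size rule. RRM2 had 8.17 with both treatments, 7.75 with CHIR99021, 8.38 with BMP4 and 7.89 in untreated cells, so that the arrays with BMP4 were both above those without it, by 0.49 and by 0.42 in the presence of CHIR99021. CDC20 had 11.88, 11.39, 12.10 and 11.61 in the same order, and its BMP4 difference was 0.49 in both backgrounds (1.40-fold). For CDC20 the effects were additive on the log2 scale to within 0.00, with CHIR99021 at -0.23 in both. PLK1, the kinase that acts from mitotic entry to cytokinesis, had 7.14, 6.74, 7.12 and 6.67, with BMP4 differences of 0.45 and 0.40. At the probes used, other members above 0 in both backgrounds included MCM7 (0.20 and 0.46), CENPF (0.37 and 0.15), CDC25C (0.38 and 0.18) and BIRC5 (0.19 and 0.41). Second probes read 0.03 and 0.40 for MCM7, -0.10 and 0.06 for CDC25C, and 0.09 and 0.10 for BIRC5.

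E2F1, which activates many S phase genes, had a mean BMP4 difference of -0.60, the lowest of all members at this setting. It was 0.49 lower with BMP4 than in untreated cells, and 0.71 lower with both treatments than with CHIR99021 alone (1.64-fold), at levels of 5.42 with both, 6.14 with CHIR99021, 5.30 with BMP4 and 5.80 in untreated cells. The arrays with BMP4 were both below those without it. The probe is dim, and its mean BMP4 difference was -0.36 with an offset of 50 and -0.23 without background correction, where TOP2A, at -0.34, was lower. MAD2L1 was 0.52 lower with BMP4 than in untreated cells, but its second probe read -0.05.

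**Figure D5:**
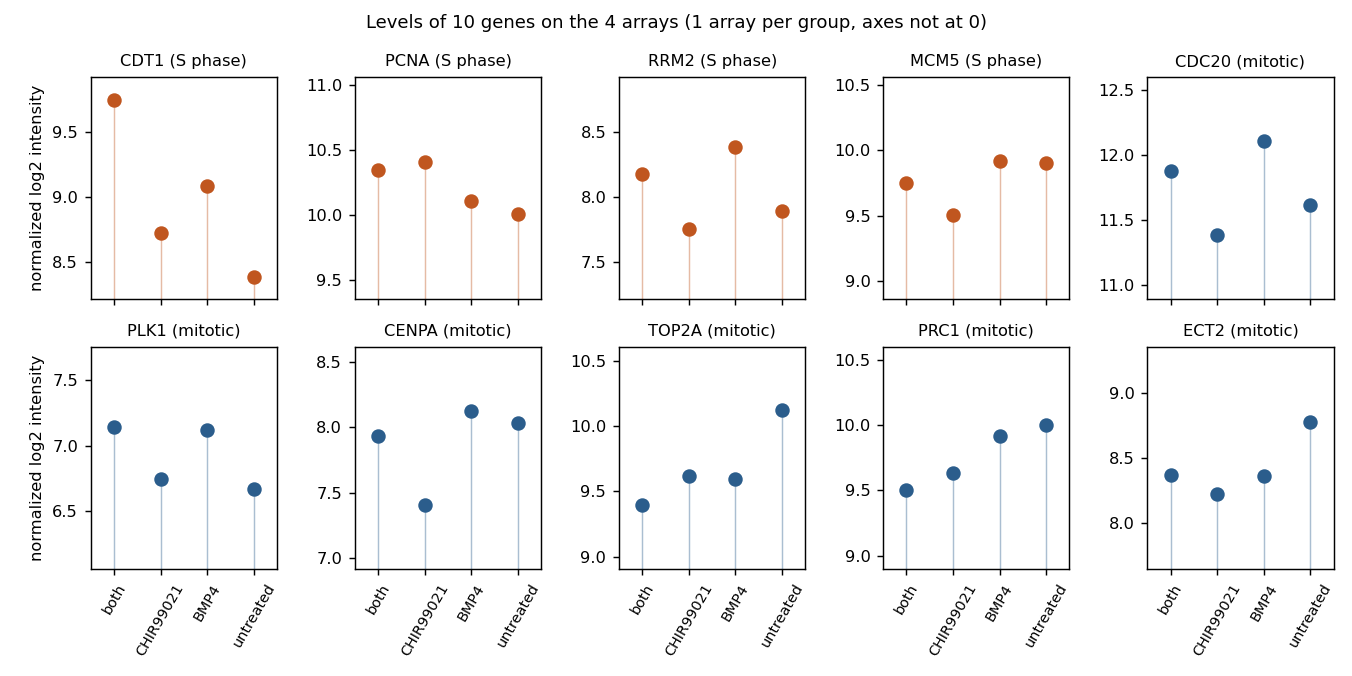
Normalized log2 intensity of 4 S phase and 6 mitotic genes on the arrays with both treatments, CHIR99021, BMP4 and no treatment. Each point is 1 array, and axes span the same width but do not start at 0. CDT1 is highest with both treatments (9.75, against 8.39 in untreated cells), CDC20 and RRM2 are highest with BMP4, and TOP2A is highest in untreated cells.

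The last comparison set cells given both treatments against untreated cells. The median difference was -0.04 in S phase genes and -0.15 in mitotic genes, against -0.01 over 10825 genes. This gap rests on few genes, since among the members detected on all 4 arrays, without CDC6 and MKI67, both medians were -0.13, and with the mean of detected probes the gap was 0.05. By the size rule 8 of 33 mitotic genes fell, where 8.49% of all measured genes were lower. They were MKI67, TOP2A (-0.73), HMMR (-0.60), CDC25B (-0.58), DLGAP5 (-0.51), PRC1 (-0.50), AURKB (-0.50) and TTK (-0.50). Second probes of HMMR (-0.22) and DLGAP5 (-0.41) fell short of the rule, while that of KIF11 (-0.58) passed it. That of KIF23 was not detected with both treatments. No S phase gene fell by the size rule, and of all members CDT1 alone rose, where 7.31% of genes were higher. A difference of 1 or more was seen in CDT1 only, where 1.28% of genes passed. These counts depend on the settings, being 1 without background correction and 3 with an offset of 50 for the lower members.

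The untreated array was the highest of the 4 for 17 of 33 mitotic genes (51.5%), against 26.3% of all detected genes. The array with both treatments was the lowest for 14 of them (42.4%, against 25.6% of all genes). The CHIR99021 array was the lowest for 10 (30.3%), close to the 27.3% of all genes. For S phase genes no array stood out as the highest, with 3, 2, 4 and 3 genes on the arrays with both treatments, CHIR99021, BMP4 and no treatment. A property of the untreated array that touches bright mitotic genes cannot be told apart from a treatment effect in comparisons that use it. The comparison of both treatments with BMP4 alone does not use the untreated array. It had 25 of 33 mitotic genes and 7 of 12 S phase genes below 0, against 5366 of 10732 measured genes. That comparison also has 1 array on each side, so a property of either array cannot be told apart from a treatment effect there. The cause was not tested.

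Further genes of the same processes, in 10 lists apart from the members, did not share the shift as a rule. The median of the mean CHIR99021 difference was -0.01 over 39 further DNA replication genes (polymerases, clamp loader, origin recognition). It was 0.08 over 11 genes of nucleotide supply, 0.05 over 14 G1 to S regulators and 0.00 over 10 MuvB and related regulators. For 14 condensin and cohesin genes it was 0.00, and for 15 checkpoint and repair genes 0.10. Over 22 histone genes picked by symbol (H1, H2AC, H2BC, H3C and H4C) it was -0.04. It was -0.05 over 33 further kinetochore genes and 0.04 over 29 further regulators of mitotic entry and exit. The exception was the list of further spindle and cytokinesis genes, with a median of -0.11 and 23 of 30 measured genes below 0. Reference genes, often used to normalize expression, had a median of 0.04 over 12. For BMP4 the further DNA replication genes did not stand above 0 as the S phase members did, with a median of -0.04 and 23 of 39 below 0.

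Some genes of these lists had larger mean CHIR99021 differences than any member. KIF14, a kinesin of the midbody, fell by 0.70 against untreated cells and by 0.89 with both treatments against BMP4 alone. ASPM, a spindle pole protein, had differences of -0.70 and -0.48. WEE1, the kinase that holds CDK1 inactive, fell by 0.89 and by 0.62. PKMYT1, the other inhibitory kinase of CDK1, fell by 0.82 against untreated cells, with -0.20 against BMP4 alone. At the other end of the same list stood FBXO5, an inhibitor of the APC/C (0.44 and 0.35), and CDC25A, a phosphatase that activates CDKs (0.40 and 0.29). In replication the clamp loader subunits RFC2 (0.30 and 0.32) and RFC5 (0.26 and 0.37) were the highest, on the side of PCNA, the clamp they load. MYBL2, the B-MYB factor that works with MuvB on mitotic genes, had -0.14 with CHIR99021 alone and -0.46 with BMP4 alone, and was not detected with both treatments, where it was at least 1.63-fold lower than in untreated cells.

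The promoter elements shown above were set against the differences as a description. The 17 mitotic genes with a CHR in the window had a median mean CHIR99021 difference of -0.23, with 14 below 0, and the 11 without it had -0.13, with 9 below 0. For BMP4 the medians were -0.11 and -0.14. The 9 S phase genes with an E2F match had medians of -0.04 for CHIR99021 and 0.05 for BMP4, and they included the highest member, CDT1, as well as MCM2, the lowest S phase gene under CHIR99021. RRM2, without a match to these E2F letters, was among the highest with BMP4.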

How the data were processed

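The authors deposited an intensity per probe on a linear scale and not normalized, with a detection p-value from GenomeStudio that compares the probe with negative controls. They also deposited normalized intensity values, made per the study's methods by background subtraction and cubic spline normalization. RNA was amplified and biotin-labelled before hybridisation. From the deposited raw intensities, log2 values were computed with limma 3.58.1 in R 4.3.3: normexp background correction from the detection p-values, an offset of 16, quantile normalization and log2. The offset shrinks the differences of dim probes, whereas the background correction widens them, so that values of dim members depend on both. The mean BMP4 difference of E2F1, for example, ran from -0.62 to -0.23 over the settings listed below.

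Probes were named by platform annotation, with symbols updated by Entrez ID through RefSeq (GRCh38.p14). Of 30120 annotated probes 30073 were updated, 8 had several symbols and 17201 more were not listed and stayed unnamed. The brightest probe stood for a gene. A gene was measured in a comparison if its detection p was below 0.01 on at least 1 of its arrays. Groups came from the treatment labels, and 5 comparisons were made without a test, since each group holds 1 array. The members and lists were chosen with earlier results of these data known. Any member may be named, and of each further list the 2 highest and 2 lowest genes by mean CHIR99021 difference. Where an array did not detect a probe, folds are bounds, for which the undetected level was put no lower than the faintest detected probe of that array. Calling steps were tested on simulated data. The alternatives were an offset of 50, no background correction, median scaling, the authors' normalized values, only genes detected on all 4 arrays, the mean of detected probes, and size rules of 0.3 and 1. Precision is limited by having 4 arrays.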

Additional observations from a re-analysis of the deposited data

Results flagged for a closer look

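In 5 members a treatment's difference had one sign without the other treatment and the opposite sign with it, each at least 0.1 in size. These differences between backgrounds were not tested, since each rests on 4 arrays without replicates. For CHIR99021, CDC6 had 0.34 with BMP4 present and -0.10 without it, a gap of 0.44. Its probe was not detected on the CHIR99021 array, so the -0.10 is only a bound, at least 1.01-fold lower, and the gap is not a measured one. CENPE, the kinetochore motor, had 0.33 with BMP4 and -0.11 without, a gap of 0.44, and its second probe was at 0.05 in both. AURKA had -0.13 with BMP4 and 0.20 without, a gap of -0.33, but its second probe had -0.19 and -0.22, with no change of sign. PTTG1 had -0.17 with BMP4 and 0.36 without, a gap of -0.54.

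For BMP4, CENPE had 0.33 with CHIR99021 present and -0.11 without it, again a gap of 0.44. Its second probe was at -0.06 in both, with no change of sign. ECT2 had 0.15 with CHIR99021 and -0.41 without, a gap of 0.56. PTTG1 had -0.43 with CHIR99021 and 0.10 without, a gap of -0.54, and its second probe had -0.40 and -0.11. On these 4 arrays the gap of a gene is by its arithmetic the same for both treatments.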

How the results depend on the processing

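With median scaling the medians of CHIR99021 against untreated were -0.09 (S phase) and -0.11 (mitotic), in place of -0.15 and -0.21. Over all measured genes that median was 0.03, in place of -0.01. The S phase median of both treatments against untreated was 0.04 with median scaling, in place of -0.04. The gap there between S phase and mitotic medians, 0.11, was -0.01 among genes detected on all 4 arrays and 0.05 with the mean of detected probes. The gap of both treatments against BMP4 alone, 0.02, was -0.02 among genes detected on all 4 arrays. The mitotic median of both treatments against CHIR99021 alone, -0.06, was 0.01 with the mean of detected probes. Members lower by 0.5 in CHIR99021 against untreated were 3, and 0 without background correction, 1 with median scaling, 0 at a size of 1 and 12 at 0.3. Members higher were 0, then 1 with median scaling and 4 at 0.3. For BMP4 against untreated the 3 lower became 0 without background correction, 1 with median scaling, 0 at a size of 1 and 8 at 0.3, and the 1 higher became 2 with median scaling, 0 at 1 and 8 at 0.3. With both treatments against untreated the 8 lower became 3 with an offset of 50, 1 without background correction, 4 with median scaling, 0 at 1 and 15 at 0.3, and the 1 higher became 4 at 0.3. Against BMP4 alone the 1 lower became 0 with an offset of 50, without background correction and at 1, and 8 at 0.3, and the 1 higher became 0 at 1 and 3 at 0.3. Against CHIR99021 alone the 2 lower became 1 with an offset of 50, 0 without background correction and at 1, and 5 at 0.3, and the 3 higher became 1 with an offset of 50, without background correction and at 1, and 9 at 0.3. The cause was not tested beyond what the settings themselves do. Under median scaling 6 of 12 S phase and 24 of 33 mitotic genes were below 0 for CHIR99021, with medians of -0.05 and -0.09. Over every alternative 38 of 45 members kept the sign of the CHIR99021 difference and 44 of 45 that of BMP4. No paired analysis was possible because each group holds 1 array, and no array could be left out within a group.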
